A study of Homo sapiens with 30 samples.

Results

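The genes described here are 36 interferon-stimulated genes (ISGs) and factors of interferon signalling, taken by gene symbol. All 36 symbols had a row among the 26228 genes of the expression table. RNA-Seq had been done in SH-EP, an established human neuroblastoma (NB) cell line of mesenchymal identity without MYCN amplification, and in 4 stable derivatives in which a retroviral transgene expressed WT MYCN or MYCN with the substitution T58A, S62A, or both, each of which removes a phosphorylation site of the protein. The lines were treated for 6 hours with DMSO, the solvent control, or with 1 μM CYC065, an inhibitor of the kinases CDK2 and CDK9, and 3 libraries were made for each of the 10 groups. Nothing in the sources used here says whether a derivative is a single clone or whether the 3 libraries of a group came from separate cultures, so p-values measure only the spread between these libraries, which may be technical.

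Type I interferons bind the receptor chains IFNAR1 and IFNAR2 and activate the kinases JAK1 and TYK2, which phosphorylate STAT proteins, among them STAT2. With IRF9, STAT2 takes part in the complex ISGF3, which binds the interferon-stimulated response element (ISRE) in ISG promoters, whereas IRF1 binds closely related sites. The products block viral replication at several steps, and many ISGs are also transcribed at a low basal level in cells that have not met interferon.

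The promoters of 5 members are shown because their letters carry the element that names the group. RefSeq promoter windows (GRCh38.p14, 250 bases before and 50 after the start site, written along the gene) were matched for 25 of the 36 members, which had 33 windows. The motif searched was the ISRE core GAAANNGAAA on both strands, and matches are in capitals. It occurred in the windows of 18 of the 25 members (72%) and of 1195 of all 27305 genes (4.38%). The windows shown are IFIT1 (chr10:89392373-89392672, plus strand, 2 matches), IFIT3 (chr10:89327747-89328046, plus strand, 2 matches), IFI44 (chr1:78649539-78649838, plus strand, 1 match), ISG15 (chr1:1013247-1013546, plus strand, 2 matches that overlap), and DTX3L (chr3:122564088-122564387, plus strand, 1 match).
IFIT1: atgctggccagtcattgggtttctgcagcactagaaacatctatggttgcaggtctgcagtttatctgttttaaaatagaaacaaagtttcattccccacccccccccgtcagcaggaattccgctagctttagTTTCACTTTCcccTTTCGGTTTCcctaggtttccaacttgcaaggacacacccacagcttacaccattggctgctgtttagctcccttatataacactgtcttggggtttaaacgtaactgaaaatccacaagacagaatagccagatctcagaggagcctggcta
IFIT3: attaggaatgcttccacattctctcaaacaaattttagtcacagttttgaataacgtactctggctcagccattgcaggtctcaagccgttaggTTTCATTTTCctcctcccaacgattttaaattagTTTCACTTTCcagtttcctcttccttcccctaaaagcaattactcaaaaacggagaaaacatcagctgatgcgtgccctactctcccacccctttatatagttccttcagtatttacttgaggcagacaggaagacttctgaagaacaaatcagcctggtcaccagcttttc
IFI44: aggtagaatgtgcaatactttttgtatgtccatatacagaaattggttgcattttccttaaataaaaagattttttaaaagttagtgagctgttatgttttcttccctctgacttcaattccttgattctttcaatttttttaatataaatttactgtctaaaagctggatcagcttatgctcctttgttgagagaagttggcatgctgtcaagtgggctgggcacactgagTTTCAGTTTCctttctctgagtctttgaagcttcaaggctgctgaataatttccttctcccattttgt
ISG15: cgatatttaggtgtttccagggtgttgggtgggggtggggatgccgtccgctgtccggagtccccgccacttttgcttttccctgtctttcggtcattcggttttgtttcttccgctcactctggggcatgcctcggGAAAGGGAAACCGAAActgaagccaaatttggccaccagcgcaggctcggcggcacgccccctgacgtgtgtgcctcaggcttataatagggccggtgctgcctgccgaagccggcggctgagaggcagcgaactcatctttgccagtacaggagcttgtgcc
DTX3L: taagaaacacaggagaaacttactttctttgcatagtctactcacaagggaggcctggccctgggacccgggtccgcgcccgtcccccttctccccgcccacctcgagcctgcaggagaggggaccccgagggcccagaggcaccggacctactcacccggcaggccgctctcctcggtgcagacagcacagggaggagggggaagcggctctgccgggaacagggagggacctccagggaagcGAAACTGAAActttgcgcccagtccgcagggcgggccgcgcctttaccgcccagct

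DTX3L and PARP9 are transcribed away from each other. Their start sites lay 38 bases apart, and the single ISRE core at chr3:122564332-122564341 was in the windows of both genes, its first base 6 bases before the start site of DTX3L and 41 before the nearer of the 2 start sites listed for PARP9. The windows of STAT2, IRF1, IRF9, IFI16, IFI35, OAS1, and XAF1 held no match. A second motif, the STAT-binding element GAS (TTCNNNGAA), was in the windows of 8 of the 25 members (32%) and of 2560 of all 27305 genes (9.38%), among them those of IRF1, IRF9, BST2, OAS1, and IFI35. A match describes the letters only.

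Levels are given in FPKM, fragments scaled by transcript length and by the fragments of the library, so that genes can be compared. Between 40.6% and 45.8% of all genes were at 0 in each library, and a 0 can be a failed estimate. Low values gave a relative depth of 0.486 to 1 in DMSO libraries and 0.291 to 0.543 in CYC065 libraries, where 1 is the deepest. MYCN was listed at 0 in all SH-EP libraries and at 5.08 to 15.7 FPKM in the 12 DMSO libraries of the MYCN lines. It was at 11.7 to 13.7 in WT, 7.27 to 9.84 in T58A, 5.08 to 6.59 in S62A, and 9.06 to 15.7 in T58A S62A. The mesenchymal NB markers PRRX1, SNAI2, FN1, VIM, TWIST1, and CD44 summed to 3183 to 3302 FPKM in SH-EP and 1571 to 2247 in the MYCN lines with DMSO, and the part of this difference in the ISG values was not tested. Of the adrenergic markers, PHOX2A and DBH were at 0 in SH-EP, although HAND2 was at 78 to 83.9 FPKM and GATA3 at 8.05 to 9.33. The 6 adrenergic markers listed summed to 87.4 to 92.4 FPKM in SH-EP with DMSO. In the MYCN lines with DMSO they summed to 67.3 to 79.1 (WT), 84.8 to 92.3 (T58A), 53.6 to 57.8 (S62A), and 75.4 to 94 (T58A S62A). Of the leukocyte markers, PTPRC was at 0.0445 to 0.0849 FPKM in SH-EP with DMSO, CD14 at 0 to 0.185, and CD3E at 0. In SH-EP the epithelial markers EPCAM and CDH1 were at or near 0, although KRT18 was at 353 to 391 FPKM. Each of the 6 SH-EP libraries carried an index sequence that a library of a MYCN line also carried. The labels name no sequencing pool, and the part of such a pool in the differences from SH-EP was not tested.

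Of the 36 members, 26 averaged 1 FPKM or more across the 30 libraries and were tested, among 11575 genes in all, by limma on log2(FPKM + 0.1). A call is a Benjamini-Hochberg adjusted p under 0.05. All changes are on this log2 scale, which makes those of low genes look smaller than they were. TRIM22, IFIT1, and IFIT2 reached this minimum only with the SH-EP libraries, since they averaged 0.759, 0.985, and 0.962 FPKM in the 24 libraries of the MYCN lines. They entered the test through the line in which they were high and so had to differ from it, and their tests against SH-EP support nothing.

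The members that were not tested included several classical ISGs. MX1, a GTPase that traps influenza nucleocapsids, was at 0.19, 0.272, and 0.275 FPKM in the DMSO-treated SH-EP libraries and at 0 to 0.257 in the 12 of the MYCN lines. OAS1, which makes oligoadenylates in response to double-stranded RNA, was at 0.217, 0.473, and 0.562 FPKM in SH-EP and at 0 to 0.241 in the MYCN lines, where it was listed at 0 in all libraries of T58A and S62A. OAS2 was at 0.59, 0.802, and 1.04 FPKM in SH-EP, above all 12 libraries of the MYCN lines, which reached at most 0.075. IRF7, the amplifier of type I interferon transcription, was at 0.575 to 0.775 FPKM in SH-EP in DMSO. In the MYCN lines it was at 0 to 0.809, with 11 libraries below all of SH-EP and 1 above. DDX58 (RIG-I, a sensor of viral RNA) was at 1.72, 1.73, and 1.90 FPKM in SH-EP and at 0.804 to 1.5 in the MYCN lines, with no overlap. MX2 and XAF1 were listed at 0 in 28 of the 30 libraries, IFI27 in 16, OASL in 18, and ISG20 in 4. In DMSO, OASL was at 0.143 to 0.283 FPKM in SH-EP and at 0 to 0.512 in the MYCN lines. Of those 12 libraries, 4 lay above all of SH-EP and 8 below. IFI27 was at 0.269 to 0.352 in SH-EP and 0 to 0.994 in the MYCN lines (3 above, 8 below). ISG20 was at 0.129 to 0.339 and 0 to 0.535 (2 above, 8 below).

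Among the tested members the levels in DMSO ranged widely. The IFITM genes, whose membrane proteins hold back viral fusion, were the most abundant in SH-EP, with IFITM3 at 405, 412, and 430 FPKM, IFITM2 at 204, 217, and 232, and IFITM1 at 29.6, 30, and 31.4. These 3 genes are close paralogs, so the division of reads among them is uncertain. IFI16, a nuclear DNA sensor, was at 66.3, 66.8, and 73.4 FPKM, and IRF3 at 18.4 to 22.6. ISG15, the ubiquitin-like protein that is conjugated to other proteins, was at 10.3, 10.9, and 12.3 FPKM in SH-EP. The lowest tested members in SH-EP were IFI44L, at 1.23 to 1.37 FPKM, IFIH1 (MDA5), at 1.46 to 2.14, and IFIT2, at 1.54 to 2.24.

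**Figure D1:**
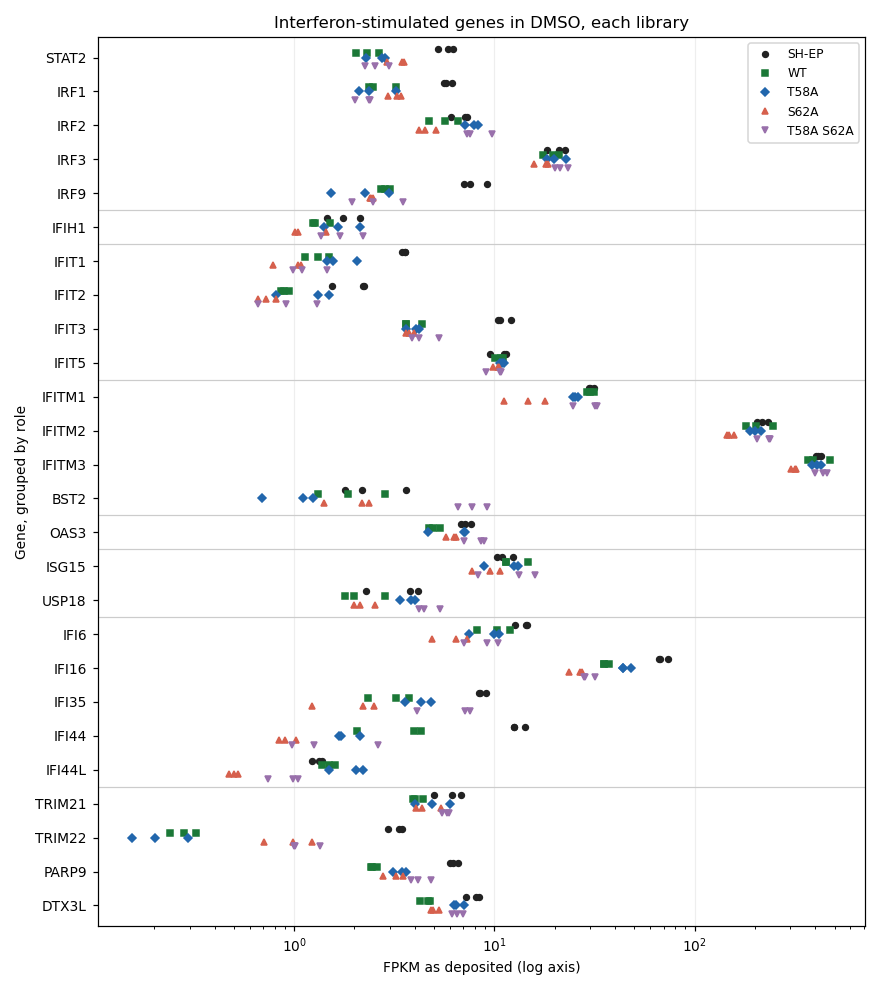
FPKM as deposited (log axis) of the 26 tested ISGs in the DMSO-treated libraries of the 5 lines, with 1 point per library and genes grouped by role. For IFI44, TRIM22, IRF9, IFIT1, IFIT3, STAT2, and IRF1, the 3 SH-EP points lie to the right of all 12 points of the MYCN lines, whereas ISG15 and IFIT5 overlap. Such a separation held for 16.5% of all tested genes, and TRIM22 and IFIT1 reached the minimum level for testing only with SH-EP.

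The first comparison asked whether ISG transcripts differed between SH-EP and the lines expressing MYCN, in DMSO. Against the SH-EP libraries, 15 of the 26 tested members were lower in the mean of the 4 MYCN lines (26.3% of all tested genes were) and 0 were higher (34.6%). IFI44, TRIM22, IRF9, IFIT3, IFIT1, and IFI35 showed the largest decreases, whereas ISG15, IFIT5, IRF3, and IFITM3 lay between -0.10 and 0.01 on the log2 scale and were not called. For 13 tested members all 12 libraries of the MYCN lines lay below all 3 of SH-EP (16.5% of all tested genes), and for 0 they lay above (21.8%). The median change of the 26 members was -0.42, beside 0.06 for all tested genes. Without TRIM22, IFIT1, and IFIT2, and without the other genes that reached the minimum only with SH-EP, 12 of 23 members were lower (25.5% of 11416 genes), 10 lay below SH-EP in every library (15.9%), and the median change was -0.30 (0.07). In bulk RNA, fewer cells that express a gene and less of its RNA per cell cannot be told apart.

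By line, 15 members were lower and 0 higher in WT (background 22.6% and 31.6% of all tested genes), 12 lower and 1 higher in T58A (23.3% and 30.9%), 18 lower and 0 higher in S62A (23.4% and 31.0%), and 11 lower and 1 higher in T58A S62A (24.1% and 31.2%). All 4 comparisons share the same 3 SH-EP libraries. The counts and medians of this paragraph, on both scales, include TRIM22, IFIT1, and IFIT2, whose direction the minimum level fixed. They support nothing for those 3 genes. On FPKM scaled to the spike-ins, which were added by cell number, the median of all tested genes was -1.17 in the mean of the MYCN lines, and all 26 members were then lower (91.2% of tested genes) and 0 higher (1.10%). The members' median on that scale was -1.66. On both scales each of the 26 members lay below the median change of all tested genes.

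**Figure D2:**
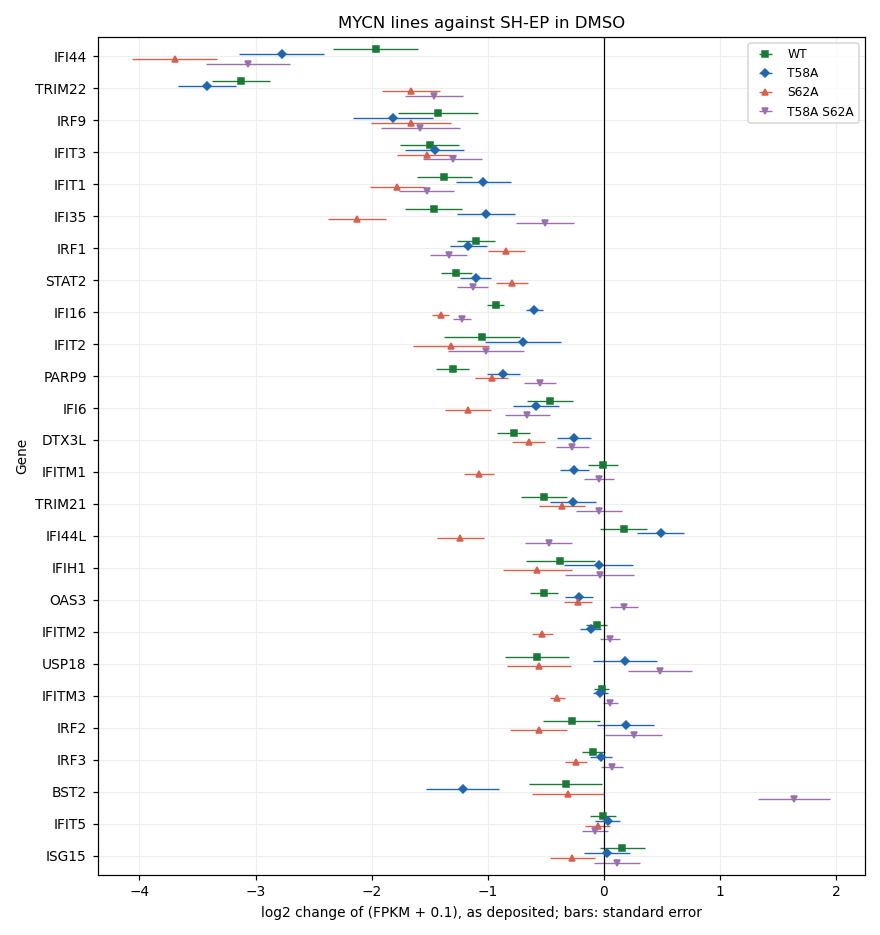
log2 change of (FPKM + 0.1), as deposited, of each tested ISG in each of the 4 MYCN lines against SH-EP in DMSO, with standard errors as bars and genes in order of their mean change. The points run from -3.70 for IFI44 in S62A to 1.64 for BST2 in T58A S62A, and those of IFIT5 and ISG15 lie around 0.

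Of the 5 tested transcription factors, STAT2, IRF9, and IRF1 fell. IRF9 (GRCh37 chromosome 14, 24630443 to 24637252, plus strand), the DNA-binding subunit of ISGF3, was at 7.03, 7.53, and 9.23 FPKM in SH-EP. It was at 2.72, 2.85, and 3.02 in WT, 1.52, 2.25, and 2.97 in T58A, 2.38, 2.40, and 2.47 in S62A, and 1.94, 2.48, and 3.51 in T58A S62A. The SH-EP libraries lay above those of all derivatives without overlap, and the mean log2 change was -1.62 (SE 0.27, limma adjusted p = 1.57e-05). STAT2 (chromosome 12, 56735381 to 56753987, minus strand), the transactivating subunit, was at 5.21, 5.83, and 6.25 FPKM in SH-EP. In the derivatives it was at 2.03, 2.31, and 2.66 (WT), 2.29, 2.74, and 2.85 (T58A), 2.89, 3.45, and 3.52 (S62A), and 2.25, 2.53, and 2.98 (T58A S62A). SH-EP again lay above all 12 libraries, and the mean change was -1.08 (SE 0.11, limma adjusted p = 4.61e-09).

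IRF1 (chromosome 5, 131776132 to 131844411, minus strand), an interferon-gamma responsive activator, was at 5.60, 5.76, and 6.11 FPKM in SH-EP and at 2.36, 2.46, and 3.23 in WT. It was at 2.11, 2.37, and 3.24 in T58A, 2.94, 3.26, and 3.42 in S62A, and 2, 2.35, and 2.39 in T58A S62A, with no overlap between SH-EP and the derivatives. Its mean change was -1.11 (SE 0.13, limma adjusted p = 5.02e-08). IRF2, which antagonizes IRF1, and IRF3, which induces interferon itself, were not called in the mean of the lines, at -0.10 and -0.07. IRF3 was called in S62A, at -0.24 (limma adjusted p = 0.0393).

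Of the IFIT genes, whose products bind viral RNA ends, IFIT3 fell, IFIT1 and IFIT2 were lower but had entered the test through SH-EP, and IFIT5 did not pass. IFIT3 (chromosome 10, 91087064 to 91137230, plus strand) was at 10.4, 10.7, and 12.1 FPKM in SH-EP, and at 3.63, 3.63, and 4.34 in WT. It was at 3.64, 4.07, and 4.22 in T58A, 3.63, 3.75, and 3.95 in S62A, and 3.88, 4.22, and 5.28 in T58A S62A. All 12 values lay below SH-EP, and the mean change was -1.45 (SE 0.20, limma adjusted p = 1.06e-06). IFIT1 (chromosome 10, 91152303 to 91166244, plus strand) was at 3.47, 3.57, and 3.59 FPKM in SH-EP, 1.14, 1.31, and 1.49 in WT, 1.45, 1.55, and 2.06 in T58A, 0.783, 1.05, and 1.07 in S62A, and 0.983, 1.10, and 1.46 in T58A S62A. It did not overlap either, and its mean change was -1.43 (SE 0.19, limma adjusted p = 4.69e-07). IFIT2 changed by -1.02 (SE 0.26, limma adjusted p = 0.00147), with no overlap. For both, the choice of genes by mean level fixed this direction. IFIT5, next to IFIT1 on the same chromosome, was at 9.53 to 11.5 FPKM in SH-EP and at 9.05 to 11.2 in the MYCN lines, and its mean change of -0.03 (SE 0.09) was not called.

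The IFI genes, a loosely named set of interferon-inducible transcripts, held the largest decrease of all members. IFI44 (chromosome 1, 79115481 to 79129763, plus strand), a cytoplasmic protein with reported antiviral activity, was at 12.5, 12.5, and 14.3 FPKM in SH-EP. It was at 2.05, 3.98, and 4.29 in WT, 1.67, 1.71, and 2.13 in T58A, 0.844, 0.896, and 1.02 in S62A, and 0.976, 1.25, and 2.61 in T58A S62A. S62A was lowest and WT highest among the derivatives, and all were below SH-EP, with a mean change of -2.88 (SE 0.29, limma adjusted p = 5.61e-09). Its neighbour IFI44L did not follow it, at 1.23 to 1.37 FPKM in SH-EP and 0.47 to 2.2 in the MYCN lines. IFI44L was higher in T58A, by 0.49 (limma adjusted p = 0.0465), and lower in S62A, at -1.24 (limma adjusted p = 1.61e-05). With spike-in scaling its change in T58A was -0.42 and was not called.

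IFI35 (chromosome 17, 41158757 to 41166473, plus strand), a partner of NMI, was at 8.35, 8.46, and 9.07 FPKM in SH-EP and at 2.35, 3.22, and 3.76 in WT. It was at 3.59, 4.32, and 4.82 in T58A, 1.23, 2.22, and 2.49 in S62A, and 4.09, 7.10, and 7.55 in T58A S62A. Every library of the derivatives was below SH-EP, though those of T58A S62A came nearest, and that line alone was not called for it (-0.51, limma adjusted p = 0.0889, against a mean change of -1.28, SE 0.20, limma adjusted p = 4.90e-06). IFI16 (chromosome 1, 158969758 to 159024945, plus strand) was at 66.3, 66.8, and 73.4 FPKM in SH-EP and at 23.5 to 48.2 in the MYCN lines, and changed by -1.04 (SE 0.06, limma adjusted p = 2.61e-13). IFI6, a mitochondrial protein that limits apoptosis, changed by -0.72 (SE 0.15, limma adjusted p = 3.00e-04) and did not overlap between SH-EP and the MYCN lines.

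TRIM22 (chromosome 11, 5710840 to 5758319, plus strand), an antiviral ubiquitin ligase, split the derivatives. It was at 2.93, 3.32, and 3.44 FPKM in SH-EP, 0.24, 0.283, and 0.324 in WT, and 0.156, 0.201, and 0.294 in T58A. In S62A it was at 0.704, 0.989, and 1.23, and in T58A S62A at 0.993, 1.01, and 1.35. SH-EP was highest, and the libraries of both lines with S62A lay above those of WT and T58A. This split was seen at low levels, and the share of all tested genes with such a split was not counted. Its mean change of -2.42 (SE 0.20, limma adjusted p = 1.60e-10) had a direction fixed by the minimum level, as for IFIT1. PARP9 and its E3 ligase partner DTX3L, which share the promoter shown above, were both lower, PARP9 by -0.92 (SE 0.11, limma adjusted p = 1.37e-07) and DTX3L by -0.49 (SE 0.11, limma adjusted p = 6.38e-04). DTX3L was called in WT (-0.78) and S62A (-0.65), while its values in T58A (-0.26) and T58A S62A (-0.27) did not pass. TRIM21, a cytosolic antibody receptor, was called only in WT, at -0.52.

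IFITM1 was at 28.9 to 31.5 FPKM in WT and at 11.1, 14.7, and 18 in S62A, and IFITM1, IFITM2, and IFITM3 were each called lower in S62A alone of the 4 lines, at -1.08, -0.53, and -0.40. In the mean of the lines IFITM1 changed by -0.35 (limma adjusted p = 0.00467), and IFITM2 by -0.16 with an adjusted p of 0.05 by limma that was just inside the threshold and was lost in 21 of the 30 fits that left out 1 library (0.0503 to 0.257). BST2 (tetherin, which holds budding virions at the cell surface) was lower in T58A, at -1.22 (limma adjusted p = 0.00192), and higher in T58A S62A, by 1.64 (limma adjusted p = 9.06e-05). OAS3 was lower in WT, at -0.52. USP18, the protease that removes ISG15 and dampens the receptor, IFIH1, and ISG15 were called in 0 lines. ISG15 was at 11.5, 11.5, and 14.7 FPKM in WT, 8.88, 12.5, and 13.1 in T58A, 7.69, 9.52, and 10.7 in S62A, and 8.27, 13.3, and 15.9 in T58A S62A, around the SH-EP values of 10.3 to 12.3. It had the highest mean change of the members, 0.01 (SE 0.16), and was the only member whose mean change was above 0.

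The second comparison set each mutant line against the WT MYCN line in DMSO. MYCN RNA was itself lower in every DMSO library of T58A and S62A than in those of WT. The part of that level in the differences below was not tested. T58A had 4 members higher and 1 lower than WT (background 10.7% and 13.0% of all tested genes), S62A had 2 higher and 7 lower (10.1% and 14.0%), and T58A S62A had 7 higher and 3 lower (9.43% and 14.2%). With spike-in scaling these splits were 2 and 0 (8.13% and 0.458%), 1 and 18 (0.181% and 74.8%), and 10 and 0 (23.2% and 1.02%). That scaling moved the median of all tested genes to 0.28, -0.71, and 0.39. For T58A the count went from 5 to 2 without WT library 2 or T58A library 1, and to 3 without T58A library 3, where libraries are numbered in column order.

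In S62A the lower members were IFI44 (-1.73, limma adjusted p = 0.00105), IFI44L (-1.41), IFITM1 (-1.07), IFI6 (-0.71), IFITM2 and IFI16 (each -0.47), and IFITM3 (-0.38). All 7 were also lower with spike-in scaling, but so were 74.8% of all tested genes, whose median there was -0.71. TRIM22 was higher, by 1.47 (SE 0.25, limma adjusted p = 1.08e-04), and STAT2 by 0.48 (limma adjusted p = 0.0102), but STAT2 was at -0.19 with spike-in scaling and not called there. TRIM22 remained higher on that scale, at 0.90. Its mean in the MYCN lines was 0.759 FPKM, under the minimum of 1, so its differences between these lines are of low values.

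In T58A S62A the largest difference from WT was that of BST2, which is singled out after its values were seen. BST2 (chromosome 19, 17513748 to 17516439, minus strand) was at 6.56, 7.71, and 9.19 FPKM in T58A S62A, 1.32, 1.85, and 2.83 in WT, 0.693, 1.10, and 1.24 in T58A, 1.40, 2.18, and 2.37 in S62A, and 1.80, 2.17, and 3.62 in SH-EP. The 3 libraries of the double mutant stood above all 12 others in DMSO, at 1.97 on the log2 scale over WT (SE 0.31, limma adjusted p = 4.68e-05). TRIM22 (1.66), USP18 (1.06), IFI35 (0.96), PARP9 (0.75), OAS3 (0.69), and DTX3L (0.50) were also higher than in WT, and IFI44 (-1.10), IFI44L (-0.65), and IFI16 (-0.29) lower. With spike-in scaling, where all tested genes had a median of 0.39, those 3 were at -0.70, -0.27, and 0.13 and were not called. In T58A, USP18 (0.76), DTX3L (0.52), PARP9 (0.44), and IFI16 (0.33) were higher and BST2 (-0.89) was lower than in WT.

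The third comparison asked what CYC065 did to these transcripts in 6 hours. CDK9 is the kinase that releases paused RNA polymerase II into elongation. FPKM are relative to all fragments of a library, so CYC065 was compared with DMSO on FPKM scaled to the spike-ins, which were added by cell number, and values as deposited are given beside them. On the scaled values all 26 tested members fell in the mean of the 5 lines (94.4% of all tested genes) and 0 rose (1.59%), with a median of -1.42 beside -1.20 for all tested genes. On FPKM as deposited, 9 members were higher (46.9%) and 11 lower (39.8%), with a median of -0.17 beside 0.10.

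By line, 17 members were lower with CYC065 in SH-EP (75.7% of all tested genes), 26 with WT MYCN (93.7%), 20 with T58A (84.2%), 23 with S62A (90.2%), and 16 with both substitutions (76.3%). In each line 0 were higher, against a background of 0.907%, 0.769%, 1.25%, 0.968%, and 1.85%. In each of the 5 lines 15 members fell (69.4% of all tested genes): STAT2, IRF2, IRF3, IRF9, IFIH1, IFIT1, IFIT3, IFIT5, USP18, IFI16, IFI44, IFI44L, TRIM21, PARP9, and DTX3L. As deposited, the members lower and higher were 12 and 10 in SH-EP (33.5% and 42.7%), 8 and 6 in WT (34.2% and 37.0%), 11 and 8 in T58A (33.3% and 38.1%), 11 and 9 in S62A (34.6% and 38.8%), and 10 and 8 in T58A S62A (34.2% and 38.6%). On that scale 7 members were lower in every line (24.4% of all tested genes), namely IRF2, IRF9, IFIT1, IFIT3, IFIT5, TRIM21, and DTX3L. The counts with CYC065, on both scales, include IFIT1 and IFIT2, which reached the minimum level only with SH-EP. Both had their highest FPKM as deposited in SH-EP with DMSO, the baseline there, so that choice favoured a fall in SH-EP. For these genes the counts of SH-EP, of the mean, and of all 5 lines support nothing.

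**Figure D3:**
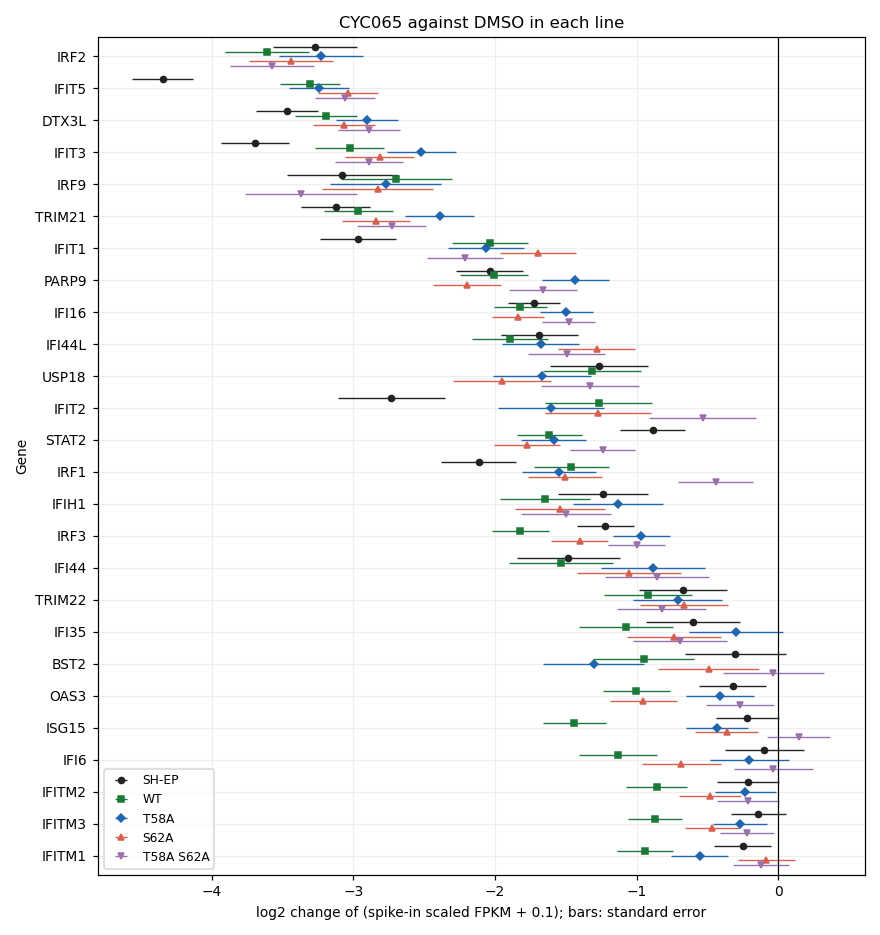
log2 change of (spike-in scaled FPKM + 0.1) of each tested ISG with CYC065 against DMSO in each of the 5 lines, with standard errors as bars and genes in order of their mean change. Changes run from -4.35 for IFIT5 in SH-EP to 0.14 for ISG15 in T58A S62A, and IRF2, IFIT5, DTX3L, IFIT3, and IRF9 lie at -2.52 or lower in every line.

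The transcription factors differed among themselves. IRF2 (chromosome 4, 185306856 to 185395712, minus strand) had the largest mean decrease of the members, -3.42 (SE 0.13, limma adjusted p = 3.00e-19). On the scaled values it went from 19.5, 22.2, and 23.4 FPKM in SH-EP with DMSO to 1.79, 2.04, and 2.74 with CYC065, and in WT from 6.02, 6.4, and 10.8 to 0.363, 0.392, and 0.951. As deposited it went from 6.07, 7.14, and 7.28 to 1.42, 1.53, and 1.93 in SH-EP, so that treated and untreated libraries did not overlap on either scale. IRF9 changed by -2.95 (SE 0.18, limma adjusted p = 4.32e-15) and was at 0.236, 0.378, and 0.732 FPKM as deposited in T58A S62A with CYC065. STAT2, IRF1, and IRF3 changed by -1.42, -1.41, and -1.28 when scaled, near the median of all tested genes, and were at -0.14, -0.13, and 0.05 as deposited.

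IFIT5 (chromosome 10, 91174325 to 91181362, plus strand), had the next largest decrease, -3.40 (SE 0.09, limma adjusted p = 4.86e-22). Scaled values went from 29.1, 36.6, and 36.9 FPKM to 1.35, 1.58, and 1.83 in SH-EP, and from 12.5, 13.7, and 16.6 to 1.14, 1.36, and 1.55 in WT. As deposited, IFIT5 was at 1.10, 1.15, and 1.29 FPKM in treated SH-EP, below the 2.12 to 3.37 of the treated MYCN lines. IFIT3 changed by -2.99, IFIT1 by -2.19, and IFIT2 by -1.48 in the mean of the lines. For IFIT1 and IFIT2 the mean includes SH-EP, through which they had entered the test. DTX3L (chromosome 3, 122283185 to 122294050, plus strand) changed by -3.10 (SE 0.10, limma adjusted p = 4.77e-21), from 22, 26, and 27.6 scaled FPKM to 1.85, 2.11, and 2.64 in SH-EP and from 5.24, 6.12, and 7.01 to 0.566, 0.567, and 0.596 in WT. PARP9, across the shared promoter, changed by -1.87 (SE 0.11, limma adjusted p = 1.75e-15). TRIM21 changed by -2.81.

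The smallest decreases were those of the IFITM genes. IFITM1 (chromosome 11, 310041 to 315272, plus strand) was at 91.4, 95.3, and 103 scaled FPKM in SH-EP with DMSO and at 74.8, 81.6, and 87 with CYC065, and in WT at 32.5, 40.2, and 49.6 and then 17.5, 19.7, and 26.4. The treated libraries were lower in both lines, but the change in SH-EP (-0.25) was not called and that in WT (-0.94) was. The mean changes of IFITM1, IFITM2, and IFITM3 were -0.39, -0.40, and -0.40. As deposited all 3 were higher, by 0.95, 0.94, and 0.95, and IFITM3 (chromosome 11, 319676 to 329475, minus strand) went from 405, 412, and 430 FPKM to 868, 892, and 931 in SH-EP and from 368, 392, and 476 to 695, 724, and 744 in WT. IFITM2 (chromosome 11, 303655 to 309397, plus strand) went from 204, 217, and 232 FPKM as deposited to 437, 440, and 463 in SH-EP. As deposited, the treated libraries of both lines lay above the untreated ones without overlap.

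ISG15, IFI6, OAS3, BST2, IFI35, and TRIM22 likewise fell when scaled, to log2 changes of -0.46, -0.43, -0.59, -0.62, -0.68, and -0.76, and were higher as deposited, by 0.87, 0.90, 0.73, 0.66, 0.62, and 0.37. IFI44 changed by -1.16 when scaled and was at 0.09 as deposited. Of the members that were not tested, DDX58 was at 0.712 to 1.13 FPKM as deposited in SH-EP with CYC065, below the DMSO values of 1.72 to 1.90. MX1 was at 0.054, 0.138, and 0.26 FPKM there, and OAS1 at 0.222, 0.365, and 0.58, and both overlapped their DMSO values.

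**Figure D4:**
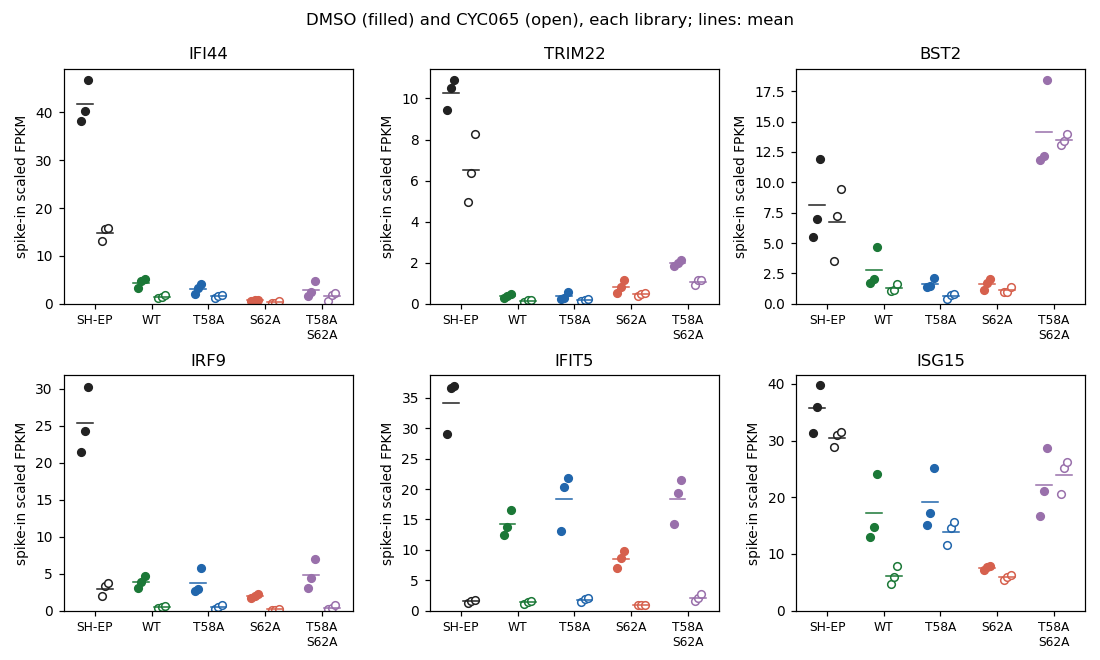
Spike-in scaled FPKM of IFI44, TRIM22, BST2, IRF9, IFIT5, and ISG15 in each library of the 5 lines (filled points, DMSO; open points, CYC065; horizontal lines, means of 3 libraries; linear axes from 0). IFIT5 and IRF9 are lower with CYC065 in every line, as were 69.4% of all tested genes. In DMSO the SH-EP libraries are highest for every gene shown but BST2. On this scale 91.2% of all tested genes were lower in the mean of the MYCN lines than in SH-EP. As deposited, ISG15 and IFIT5 overlapped between SH-EP and the MYCN lines. With CYC065, BST2 is highest in T58A S62A, at 13.1 to 14 against at most 9.42 elsewhere.

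The difference between the CYC065 response of each MYCN line and that of SH-EP was tested as an interaction on the scaled values, where a positive value is a smaller fall in the MYCN line. The members that passed were 2 for the WT line (18.1% of all tested genes did, in either direction), 1 for T58A (2.59%), 2 for S62A (4.95%), 3 for T58A S62A (5.41%), and 2 for the mean (6.10%). Positive and negative passes were 1.89% and 16.3% of all tested genes in WT, 2.28% and 0.311% in T58A, and 3.08% and 1.87% in S62A. They were 5.21% and 0.199% in T58A S62A and 4.17% and 1.93% in the mean. The medians of all tested genes were -0.52, -0.01, -0.29, 0.08, and -0.20 in that order. As deposited 8 members passed in the mean (33.3%), 6 with a positive and 2 with a negative value. These comparisons share the SH-EP libraries. IFIT5 was called in each line, at 1.04 (WT), 1.11 (T58A), 1.31 (S62A), and 1.29 (T58A S62A), with limma adjusted p from 0.00767 to 0.0432. It changed by -4.35 in SH-EP and by -3.04 to -3.31 in the MYCN lines.

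IFIT2 was called in T58A S62A, at 2.2 (SE 0.53, limma adjusted p = 0.0102), and in the mean, at 1.56 (limma adjusted p = 0.0229). Its scaled values were 4.96, 6.72, and 7.37 FPKM with DMSO and 0.435, 1.17, and 1.2 with CYC065 in SH-EP, against 1.04, 1.83, and 2.34 and then 0.809, 1.21, and 1.38 in T58A S62A. The treated and untreated libraries of T58A S62A overlapped, and those of SH-EP did not. IRF1 was called in T58A S62A, at 1.67 (SE 0.37, limma adjusted p = 0.00536), where it was at 3.61, 3.77, and 4.73 scaled FPKM with DMSO and 2.35, 2.82, and 3.76 with CYC065, and in SH-EP at 17.1, 18.9, and 19.6 and then 3.42, 4.06, and 5.31. IFIT1 was called in S62A, at 1.27 (limma adjusted p = 0.0488). IFIT1 and IFIT2 had entered the test through SH-EP, where their DMSO level is part of this difference. ISG15 was called in WT, at -1.22 (SE 0.31, limma adjusted p = 0.0243), with 12.9, 14.7, and 24.2 scaled FPKM before and 4.78, 5.86, and 7.92 after CYC065 in WT, and 31.3, 35.9, and 39.7 and then 28.9, 31, and 31.4 in SH-EP. With only the 21 spike-ins of at least 50 FPKM the count was 0 in every line and in the mean by limma, whereas IFIT5 and IFIT2 in the mean had adjusted p of 0.0786 and 0.114. Leaving out 1 library gave 0 to 9 members for WT, 0 to 2 for T58A, 1 to 3 for S62A, 3 for the double mutant, and 1 to 6 for the mean. IFIT2 was no longer called in the mean without SH-EP DMSO library 2 or 3 or SH-EP CYC065 library 3 (limma adjusted p = 0.0689, 0.088, and 0.111).

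Other genes of the pathway were taken from a list of 76, of which 52 were tested. Against SH-EP in DMSO, 26 of them were lower and 9 higher in the mean of the MYCN lines, with a median of -0.27, beside 26.3% lower, 34.6% higher, and a median of 0.06 over all tested genes. JAK2 and TLR3 reached the minimum only with the SH-EP libraries and so had to differ, and without such genes 24 of 50 were lower (25.5% of genes) and 9 higher (35.1%). The same 26.3% and 34.6% are the background of the counts by role. Of the 8 interferon ligands listed, 6 were at 0 in all 30 libraries and IFNB1 in 28, whereas IFNE, an epithelial type I interferon, was at 1.54 to 1.83 FPKM in SH-EP and was lower, at -0.70 (limma adjusted p = 0.0087). Of the 9 tested receptors and kinases, 6 were lower and 0 higher, including IL10RB (-1.15), JAK2 (-0.50), JAK1 (-0.48), IFNGR1 (-0.40), and IFNAR1 (-0.27). The 6 include JAK2, whose call supports nothing because it entered the test through SH-EP.

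Of the 9 tested sensors and adaptors, 5 were lower and 1 higher. The 5 include TLR3, which entered the test through SH-EP, so its test against that line supports nothing. TLR3, the endosomal sensor of double-stranded RNA, changed by -2.51 (SE 0.26, limma adjusted p = 1.07e-08), from 2.95, 3.07, and 3.61 FPKM in SH-EP to 0.48, 0.513, and 0.525 in WT and 0.048, 0.189, and 0.201 in S62A. TMEM173 (STING, the adaptor of cytosolic DNA sensing) changed by -1.19. TRAF3 was higher, by 0.77. Of 7 further tested regulators of the pathway, 4 were higher, against 34.6% of all tested genes. These were PRMT1 (0.99), TRIM25 (0.80), PTPN2 (0.48), and PTPN11 (0.44). SOCS1, an inhibitor of JAK kinases, was lower, at -1.75 (limma adjusted p = 0.00268). Of the 24 further stimulated genes tested, 13 were lower and 3 higher, with SAMD9L (-2.49), APOL1 (-1.97), UBE2L6, the E2 enzyme of ISG15 (-1.59), DDX60 (-1.37), DDX60L (-1.12), and GBP2 (-1.04) past 1 log2 unit. DDX60 and DDX60L are paralogs whose reads may be divided uncertainly. With spike-in scaling 51 of the 52 were lower (91.2% of all tested genes) and 0 higher (1.10%), and with CYC065 51 were lower (94.4%) and 1 (1.59%), IFNE, was higher, by 0.35 in the mean of the lines.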

How the data were processed

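RNA was poly(A) selected, ERCC spike-ins were added in proportion to cell number, and strand-specific libraries were sequenced. The authors aligned reads to hg19 with HISAT2 and computed FPKM with Cufflinks, per the labels and the study's methods, and deposited one table of FPKM per gene and library. The annotation behind the FPKM is not given in the sources used here. Columns were assigned to groups by their names, and 0 columns belonged to other samples. Values were tested as log2(FPKM + 0.1) with limma 3.58.1 (R 4.3.3), with 1 fit of all 30 libraries, a trended eBayes prior, and Benjamini-Hochberg adjustment over 11575 genes. Comparisons between lines used the deposited FPKM unscaled. For CYC065 each library was shifted to give every library the same median log2 value over 55 spike-ins, those averaging 1 FPKM or more. Read counts were not used here, so no counting interval is given. The scripts were tested on simulated data. Gene positions are from GENCODE on GRCh37. Named genes were STAT2, IRF9, IRF1, IFIT1, ISG15, MX1, OAS1, and the 6 members with the lowest and 6 with the highest mean change against SH-EP. Of those highest 6 only ISG15 was above 0. Also named were the 3 with the largest and 3 with the smallest changes with CYC065, and pathway genes that passed with a mean change of at least 1, with others as examples. The members and lists were chosen with earlier results of these data known. A few marker and pathway genes are not reported here.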

Additional observations from a re-analysis of the deposited data

Results flagged for a closer look

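The difference between the CYC065 response of a MYCN line and that of SH-EP passed the limma interaction test (spike-in scaled log2 values) for 5 members. IFIT5 passed in WT (1.04, adjusted p = 0.034), T58A (1.11, 0.0432), S62A (1.31, 0.0089), T58A S62A (1.29, 0.00767), and the mean of the 4 lines (1.19, 0.00184). IFIT2 passed in T58A S62A (2.2, 0.0102) and in the mean (1.56, 0.0229). IRF1 passed in T58A S62A (1.67, 0.00536), IFIT1 in S62A (1.27, 0.0488), and ISG15 in WT (-1.22, 0.0243). All share the 6 SH-EP libraries, and IFIT1 and IFIT2 reached the minimum level only with them. The share of all tested genes that passed was 18.1% in WT, 2.59% in T58A, 4.95% in S62A, 5.41% in T58A S62A, and 6.10% in the mean, and with only the spike-ins of at least 50 FPKM 0 members passed in any of these comparisons by limma. In that setting 24 of the 11575 tested genes passed in WT and 250 in the mean. In the main setting the 18.1% of WT were 1.89% with a positive value and 16.3% with a negative one.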

How the results depend on the processing

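Member counts are given in the order WT, T58A, S62A, and T58A S62A, then the mean of the lines where it applies. Beside the counts of each setting stands the number or share of all tested genes that passed. It was not counted for the fits that left out 1 library. Tested genes numbered 11575, but 19379 with no filter, and their number with a minimum of 5 FPKM is not given here. A minimum mean of 5 FPKM left 10 members to test in place of 26. The calls against SH-EP were then 4, 3, 7, 2, and 5 (from 15, 13, 18, 12, and 15). Of all genes tested there, 5062, 4998, 4985, 5068, and 5512 passed. The calls of T58A and T58A S62A against WT were 1 and 3 (from 5 and 10), beside 2416 and 2332 of all genes. The calls with CYC065 were 3 in SH-EP and 10, 4, 8, 3, and 10 (from 17, 26, 20, 23, 16, and 26). All genes that passed with CYC065 numbered 6217 in SH-EP and 7864, 7072, 7678, 6351, and 7933. In the mean of the lines all 10 tested members were thus called with CYC065. The interactions were 4, 0, 1, 1, and 1 (from 2, 1, 2, 3, and 2). With the other scaling the calls against SH-EP were 26 in WT, 25 in T58A, 24 in T58A S62A, and 26 in the mean, those against WT 2 in T58A and 19 in S62A, those with CYC065 14 in WT, and the interactions 8, 3, 5, 5, and 8. With libraries centred on their median, the calls with CYC065 in WT were 15, and the interactions 9 (WT), 5 (T58A), 7 (S62A), and 7 (mean). Of all tested genes, 8456 were called with CYC065 in WT, and 3165, 2602, 2794, and 3706 as interactions. With no filter, T58A against WT gave 3 (2638 genes), and the interactions 0 in T58A (454) and 4 in the mean (1113). A fit of only the groups compared gave 5 for S62A against WT (from 9, beside 1430 genes) and 0 for the T58A interaction (51). The interactions were 7, 4, 10, 5, and 8 with a pseudocount of 1, beside 1518, 513, 1066, 891, and 1139 of all tested genes. With a pseudocount of 0.01 they were 0 in T58A (276 genes) and 1 in S62A (573). With no trend they were 4 in WT (1683) and 4 in the mean (724). With the spike-ins of at least 50 FPKM they were 0 throughout, beside 24, 136, 185, 168, and 250 genes. With those spike-ins 250 of the 11575 tested genes passed in the mean, against 706 in the main setting. The cause was not tested.

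Against SH-EP the mean change of BST2 became 0.024 with a pseudocount of 1, and that of ISG15 -1.24 with the other scaling and -0.0078 after median centring. The mean changes with CYC065 became positive on FPKM as deposited for IRF3 (0.051), IFITM1 (0.95), IFITM2 (0.94), IFITM3 (0.95), BST2 (0.66), OAS3 (0.73), ISG15 (0.87), IFI6 (0.90), IFI35 (0.62), IFI44 (0.090), and TRIM22 (0.37). After median centring they became positive for STAT2 (0.070), IRF1 (0.076), IRF3 (0.21), IFIH1 (0.078), IFIT2 (0.0086), IFITM1 (1.10), IFITM2 (1.09), IFITM3 (1.10), BST2 (0.87), OAS3 (0.90), ISG15 (1.03), IFI6 (1.06), IFI35 (0.81), IFI44 (0.33), and TRIM22 (0.73). The median of all tested genes was 0.10 as deposited and 0.30 after centring, beside -1.20 when scaled. The cause of these reversals was not tested.

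Leaving out 1 library in turn (30 fits) gave 13 to 16, 11 to 14, 17 to 19, 11 to 13, and 14 to 16 calls against SH-EP, 2 to 5, 7 to 10, and 8 to 12 against WT, 17 to 18 in SH-EP and 25 to 26, 17 to 25, 18 to 23, 14 to 17, and 26 to 26 with CYC065, and 0 to 9, 0 to 2, 1 to 3, 3 to 3, and 1 to 6 interactions. The WT interaction count was 0 without SH-EP DMSO library 2 or 3, WT DMSO library 1, SH-EP CYC065 library 1 or 2, or WT CYC065 library 2, and 9 without T58A DMSO library 2. The mean change against SH-EP ranged from -0.26 to 0.22 for BST2, -0.11 to 0.023 for IFIT5, -0.052 to 0.079 for ISG15, and -0.38 to 0.044 for USP18, which were not called. No paired analysis was possible because the columns carry the numbers 0 to 2 and the labels 1 to 3, so no column can be matched to a replicate number. CYC065 libraries had the lower relative depth, 0.291 to 0.543, and members averaging under 1 FPKM were not tested.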
